A study of Nicotiana tabacum with 6 samples.

Results

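Core and linker histone genes were examined in leaf RNA of GDH64, a tobacco (Nicotiana tabacum) line, and of MuGDH64, an aphid-resistant line bred from GDH64 by cobalt gamma irradiation. The members were the gene models whose domain description names histone H2A, H2B, H3, H4, the histone core or a linker histone, without a SET, methyltransferase, Myb or SANT term, and whose value reached 1 FPKM in at least 3 of 6 libraries. FPKM is a count of sequenced fragments scaled to transcript length and to the mapped fragments of the library. The description matched 137 of 69500 gene models, and 103 of these met the minimum. Both lines were represented by 3 leaf RNA sequencing libraries, and they share the GDH64 background. According to the design text, punches of middle leaves from 3 plants per field plot were pooled, and MuGDH64 is a stable mutant line. No label ties a library to a sampling date, a season or a field block. The lines were compared to ask which leaf transcripts differ in the mutant.

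Core histones H2A, H2B, H3 and H4 form the protein spool around which DNA is wound in a nucleosome, and linker histone H1 binds the DNA where it enters and leaves that spool. Most histone synthesis accompanies DNA replication, while some variant histones are made throughout the cell cycle and are placed into chromatin of cells that no longer divide. Plant histone mRNAs, unlike most of those of animals, carry poly(A) tails. The descriptions give the family of a model, not its variant, so replication-linked and replacement histones could not be told apart.

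The label was checked against the descriptions. Of the 103 kept models 95 were histones by their description, with 27 H2A, 18 H2B, 15 H3, 17 H4 and 18 linker models. The other 8 are described as histone acetyltransferases, which modify histones and are not histones themselves, and are kept apart below. Of the 95 histone models 8 also carry the name of an unrelated domain. Of these 4 H3 models name a pentatricopeptide repeat or WEB family domain, 3 H3 models a ribonuclease H-like domain and 1 H2A model an aldo/keto reductase domain. Such a model may join neighbouring genes, and reads from the other gene would then count toward its value, which was not tested. Not counted among these 8 are H4 models that also name a TATA box binding protein associated factor (TAF). Linker models that name an AT hook, a DNA-binding motif, or HMG-I/HMG-Y are not counted either.

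Of the 34 matched models that missed the minimum, 14 were listed at 0 in all libraries and 9 others stayed below 1 FPKM in each. Just outside the minimum, with 1 FPKM or more in 2 libraries, was for example the H3 model Nitab4.5_0009644g0020, at 3.09, 9.68 and 0.9 FPKM in MuGDH64 and listed at 0 in all GDH64 libraries. Just inside it, with 1 FPKM or more in 3 libraries, was for example the H2A model Nitab4.5_0001044g0070, at 0.52, 1.59 and 0.54 FPKM in GDH64 and 2.65, 1.24 and 0.13 FPKM in MuGDH64. Of the kept members 89 reached 1 FPKM in all 6 libraries. A single kept member, the linker model Nitab4.5_0000574g0040, reached it in no GDH64 library, so it was kept only through the line in which it was higher. Nitab4.5_0000270g0260, Nitab4.5_0001542g0170 and Nitab4.5_0001831g0110 each reached it in 1 GDH64 library and 3 MuGDH64 libraries, so MuGDH64 carried them past the minimum as well. The acetyltransferase model Nitab4.5_0000069g0570 was the reverse, with 3 GDH64 libraries and 1 MuGDH64 library.

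Across the table, summed FPKM was 728572 to 756316 in GDH64 and 634425 to 719776 in MuGDH64, lowest in MuGDH64 library 3. Beside the leaf label, chlorophyll a-b binding and Rubisco small subunit models together summed to 13929 to 15720 FPKM in GDH64 and 14164 to 14840 FPKM in MuGDH64. With no other tissue to compare, these sums do not test the label. Depth is unknown, because the table holds no counts. The limma test on log2(FPKM + 1) over 32340 gene models called 3863 of them at a Benjamini-Hochberg adjusted p under 0.05. The median log2 change of all tested models was -0.18 (MuGDH64 minus GDH64), and log2 changes below are given relative to it. Each adjusted p refers to the change before that median is subtracted. Tobacco is an allotetraploid, and histone copies are near-identical in sequence, so reads may have been shared or split between copies and the value of a single model is uncertain to that extent.

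Histone transcripts were abundant and their level rested on few models. The mean over 6 libraries ran from 0.778 to 1117 FPKM among the 95 histone models, with a median of 23.1 FPKM. Of these models 20 had a mean of at least 100 FPKM and 32 had a mean under 10 FPKM. The most abundant model alone gave 14.7% of the summed histone FPKM, the first 5 gave 39.2% and the first 20 gave 76.2%. The H3 class held 5 models at 100 FPKM or more, 10 models under 10 FPKM and none between. In the H2A class 22 of 27 models had a mean of at least 10 FPKM, and the highest reached 188 FPKM.

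Summed over all 95 histone models, the level was 8555, 8070 and 7727 FPKM in GDH64 and 7526, 7346 and 6334 FPKM in MuGDH64. The lines did not overlap. The sum was 8117 ± 416 FPKM in GDH64 and 7069 ± 642 FPKM in MuGDH64 (mean ± SD between n = 3 libraries, here and wherever FPKM carries ±), a ratio of 0.871. As a share of each library's own summed FPKM, which takes out differences in the library total, histones gave 11385, 10670 and 10606 parts per 1000000 in GDH64 and 10456, 10417 and 9984 in MuGDH64, a ratio of 0.945. Part of the difference lies in the most abundant model, Nitab4.5_0000241g0210, at 1347 ± 131 FPKM in GDH64 and 887 ± 31.0 FPKM in MuGDH64. It is an H3 model that also names unrelated domains. With this model left out, the lines overlap both in the sum and in the share. No p was computed for sums over the members. In bulk leaf, fewer cells of a type and less RNA per cell cannot be told apart.

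The classes did not contribute alike to that difference. H2A summed to 1244, 1165 and 1217 FPKM in GDH64 and 1230, 1195 and 1071 FPKM in MuGDH64, overlapping between the lines. The H4 sums also overlapped, at 1354, 1172 and 1221 against 1206, 1261 and 989 FPKM. H2B overlapped too, at 977, 955 and 876 against 943, 872 and 697 FPKM, with the lowest value again in MuGDH64 library 3. Linker histones summed to 2164, 1981 and 1877 FPKM in GDH64 and 1909, 1838 and 1576 FPKM in MuGDH64, with the first MuGDH64 library inside the GDH64 range. H3 was the class whose sums lay apart, at 2817, 2798 and 2537 FPKM in GDH64 and 2238, 2181 and 2001 FPKM in MuGDH64, a ratio of 0.788. The H3 shares lay apart as well, at 3482 to 3748 parts per 1000000 in GDH64 and 3093 to 3154 in MuGDH64. Without the models that carry another domain, 8 H3 models summed to 994, 971 and 965 FPKM in GDH64 and 931, 907 and 828 FPKM in MuGDH64, a ratio of 0.910. As shares these 8 models overlapped, at 1284 to 1324 parts per 1000000 in GDH64 and 1286 to 1306 in MuGDH64.

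**Figure D1:**
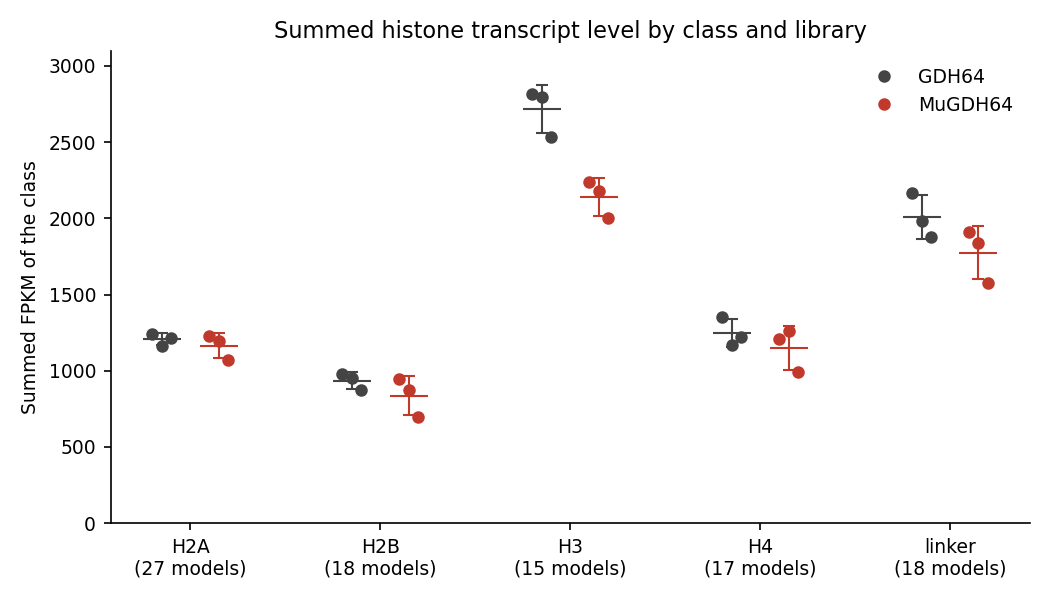
Summed FPKM (vertical axis, from 0) of the kept models of each histone class, with points for the 3 libraries of each line, horizontal bars for the mean and whiskers for the SD. The H3 sums of MuGDH64, 2001 to 2238 FPKM, all lie below those of GDH64, 2537 to 2817 FPKM, while the H2A, H2B, H4 and linker sums overlap.

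Single histone models were called at a share near that of the table as a whole. The limma test called 9 of the 103 kept members (8.74%), of which 3 rose and 6 fell in MuGDH64, against 11.9% of all tested gene models. Higher calls made up 2.20% and lower calls 9.74% of all tested models. The lines did not overlap for 25 of the 103 members (24.3%), 5 with MuGDH64 above and 20 below, against 37.5% of all tested models, 5.68% above and 31.8% below. The median log2 change of the 103 members was 0.07 above that of all tested models. Of these members 88 lay within 0.5 of that median on the log2 scale.

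The split of the calls depended on the scaling. After quantile normalization, which gives every library the same distribution of values, 8 members were higher and 5 lower (12.6%), against 4.43% higher and 5.17% lower among all tested models, 9.60% in all. Rescaling to a sum of 1000000 gave 7 higher and 5 lower, and median-centring gave 9 higher and 2 lower. Over all tested models, 712 were higher and 3151 lower as deposited. Rescaling gave 1285 and 2241 of these, and median-centring 1940 and 1384. When GDH64 library 1 or 2, or MuGDH64 library 3, was left out, 2 members were lower in each case in place of 6. Lower calls over all models dropped as well, to 1345, 1445 and 1363 in place of 3151. Without MuGDH64 library 1 or MuGDH64 library 2, 1 member was higher in place of 3. Higher calls over all models were then 356 and 348 in place of 712. Of the 9 calls as deposited, 3 held with the same sign in all 15 alternatives, those of Nitab4.5_0000241g0210, Nitab4.5_0000201g0200 and Nitab4.5_0000270g0260. The last of these met the minimum through MuGDH64 alone, so its p is given as a description.

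**Figure D2:**
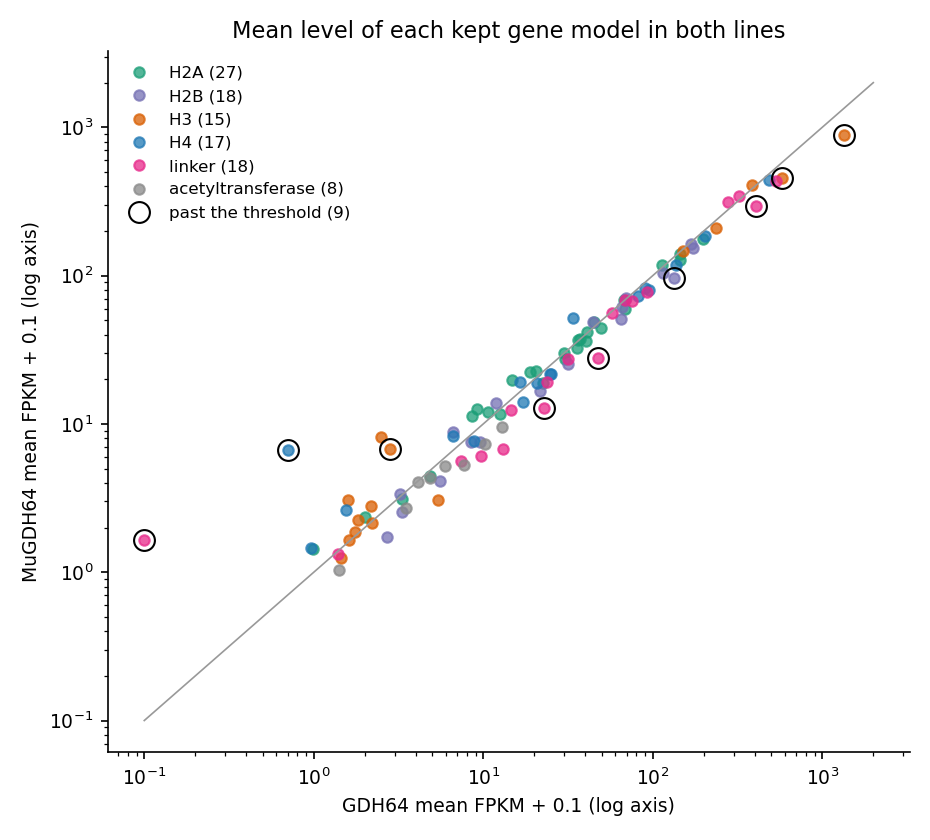
Mean FPKM + 0.1 of each of the 103 kept models in GDH64 (horizontal, log axis) and MuGDH64 (vertical, log axis), coloured by class, with the line of equal level and rings around the 9 models past the limma threshold. As deposited, the 6 models that fell all have a mean of at least 10 FPKM, and the 3 that rose lie under 10 FPKM. Of those that rose, Nitab4.5_0000574g0040 and Nitab4.5_0000270g0260 met the minimum only through MuGDH64.

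As deposited, the calls parted by level. All 3 members that rose had a mean under 10 FPKM over the 6 libraries, among 39 members at that level, and all 6 that fell had a mean of at least 10 FPKM, among 64 members. Among all tested models, higher calls made up 19.1% of the calls under 10 FPKM and 17.7% of those at 10 FPKM or more. After quantile normalization the parting was not complete: at 10 FPKM or more 2 histone models were higher and 5 lower, and under 10 FPKM 6 were higher and none lower. Among the 3 that rose as deposited, Nitab4.5_0000574g0040 and Nitab4.5_0000270g0260 met the minimum only through MuGDH64. Their selection therefore favoured low models that rise. The difference in direction between the levels was not tested for the members. Replicates of low models were also more variable: the median coefficient of variation in GDH64 was 35.2% for histone models under 10 FPKM and 8.93% for those at or above it.

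**Figure D3:**
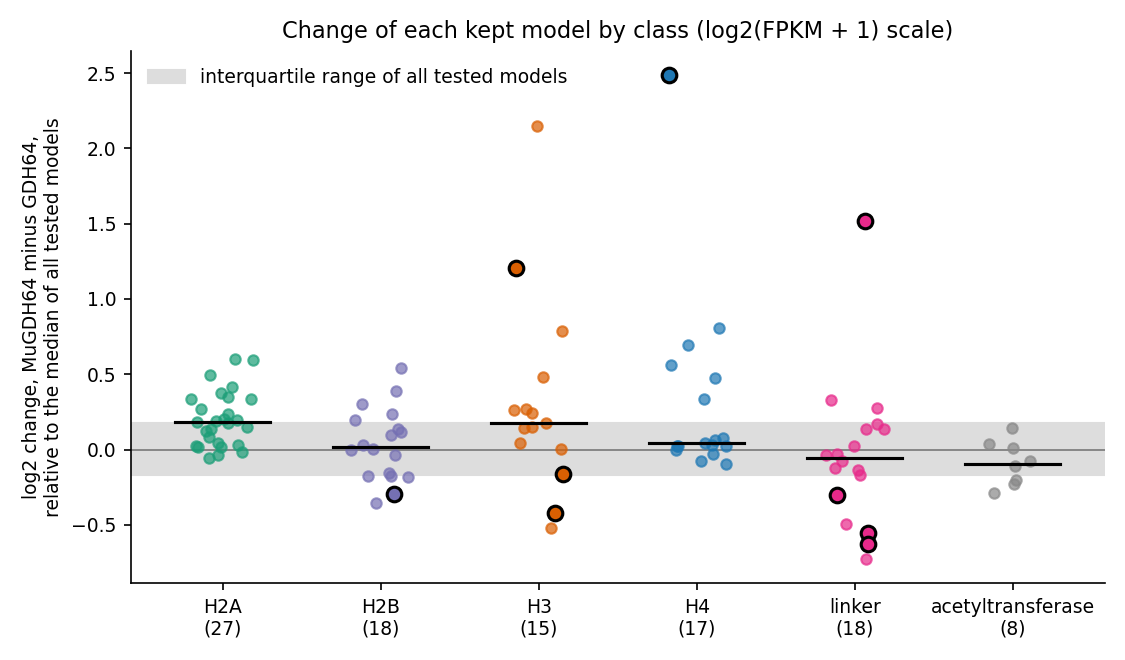
Log2 change of each kept model (MuGDH64 minus GDH64 on the log2(FPKM + 1) scale, relative to the median of all tested models), by class, with black bars for class medians, black outlines for models past the threshold and a grey band from the lower to the upper quartile of all tested models. The H2A points reach from -0.06 to 0.60, while H3, H4 and linker models include single points above 1.5.

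H3, the histone whose tail carries many of the best known chromatin marks, held the most abundant member. Nitab4.5_0000241g0210, described with H3, pentatricopeptide repeat and WEB family domains, stood at 1424, 1422 and 1196 FPKM in GDH64 and 913.0, 894 and 852 FPKM in MuGDH64. All GDH64 libraries lay above all MuGDH64 libraries. It fell by 0.42 ± 0.095 (log2 change relative to the median ± SE) from 1347 ± 131 to 887 ± 31.0 FPKM. Its log2 change before subtraction was -0.60 (limma adjusted p = 0.00707). This call held in all 15 alternatives (adjusted p from 0.00287 to 0.0456). Because the model joins unrelated domains, its value cannot be assigned to H3 alone.

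The second most abundant H3 model, Nitab4.5_0006824g0040, has no other domain and stood at 589.8, 592 and 549.9 FPKM in GDH64 and 456, 471 and 440 FPKM in MuGDH64. The lines did not overlap, and it fell by 0.16 ± 0.080 on the relative log2 scale. Its log2 change before the median is subtracted, to which the p refers, was -0.34 (limma adjusted p = 0.0280). It was called in 5 of 15 alternatives (adjusted p from 0.0201 to 0.211) and was not called after quantile normalization (limma adjusted p = 0.162). It was also not called without GDH64 library 1 or 2 or without any single MuGDH64 library, with adjusted p from 0.0583 to 0.113.

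The third H3 model in abundance, Nitab4.5_0000786g0100, was at 384, 366 and 401 FPKM in GDH64 and 437, 413 and 374 FPKM in MuGDH64, which overlapped (limma adjusted p = 0.535). The WEB family and H3 models Nitab4.5_0000128g0260 and Nitab4.5_0010702g0020 followed, and neither was called. The first of these was at 242, 237 and 230.1 FPKM in GDH64 and 228, 224 and 180.0 FPKM in MuGDH64, just apart. The other overlapped, at 150 ± 10.3 and 147 ± 13.1 FPKM. These models outside the naming rule, here and below, were chosen after their values were seen.

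A single H3 model rose. Nitab4.5_0000446g0090, a low model without another domain, stood at 1.99, 3.49 and 2.64 FPKM in GDH64 and 7.49, 8.02 and 4.46 FPKM in MuGDH64. The lines did not overlap, although MuGDH64 library 3 lay close to the highest GDH64 library. Its relative log2 change was 1.21 ± 0.222 (limma adjusted p = 0.0212), and it was called in 10 of 14 alternatives (adjusted p from 0.00961 to 0.0633). The calls lost were those without the filter, without GDH64 library 1 (0.0611) and without MuGDH64 library 1 or 2 (0.0605 and 0.0633). Another low model, Nitab4.5_0001542g0170, had the largest relative change among the H3 models, 2.15, and did not pass (limma adjusted p = 0.12). It was listed at 7.18, 0 and 0 FPKM in GDH64, against 14.8, 4.93 and 4.29 FPKM in MuGDH64, so its lines overlapped. MuGDH64 alone carried this model past the minimum, so its selection favoured a rise. The H3 model Nitab4.5_0000032g0040 was lower without passing, at 5.98, 4.96 and 4.9 against 3.28, 3.73 and 1.84 FPKM.

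H4, the partner of H3 in the tetramer at the nucleosome's centre, had 1 call among 17 kept models (5.88%, against 11.9% of all tested models), and 3 calls, all higher, after quantile normalization (17.6%, against 9.60%). Nitab4.5_0000270g0260 stood at 1.33, 0 and 0.48 FPKM in GDH64 and 6.74, 7.69 and 5.27 FPKM in MuGDH64. Every MuGDH64 library lay above every GDH64 library. Its relative log2 change of 2.49 ± 0.284 was the largest among the 103 kept members (limma adjusted p = 0.00255), and the call held in all 15 alternatives (adjusted p from 0.000805 to 0.0195). MuGDH64 alone carried it past the minimum, so its selection favoured a difference, and its p is given as a description. A value of 0 in the table can be a failed estimate.

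Apart from 2 models, the lines overlapped throughout the H4 class. The most abundant, Nitab4.5_0003782g0010, was at 506, 462 and 491 FPKM in GDH64 and 448, 504 and 369 FPKM in MuGDH64. The next, Nitab4.5_0000610g0120, was at 215, 189 and 209 against 208, 189 and 159 FPKM. Neither passed (limma adjusted p = 0.392 and 0.394). The low model Nitab4.5_0006342g0050 was apart without passing as deposited, at 1.68, 1.31 and 1.39 against 2.63, 2.07 and 2.9 FPKM, and was called higher after quantile normalization (limma adjusted p = 0.0350, against 0.0590 as deposited). So was Nitab4.5_0000070g0210, which also names a TAF, at 6.16, 7.88 and 5.49 against 7.67, 9.32 and 7.57 FPKM (limma adjusted p = 0.0432, against 0.205 as deposited). The median relative log2 change of the 17 models was 0.05.

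H2A and H2B pair as dimers on either side of that tetramer. None of the 27 H2A models passed the limma test, as deposited or after quantile normalization, and 3 had an unadjusted p under 0.05 as deposited. The 2 most abundant H2A models were Nitab4.5_0002077g0100, at 213, 181 and 198 against 192, 173 and 167 FPKM, and Nitab4.5_0003782g0030. The latter was at 144.5, 147 and 144.6 FPKM in GDH64 and 152, 149 and 121 FPKM in MuGDH64. Both overlapped between the lines. Of the 27 models 24 lay above the median change of all tested models and 3 below, with a class median of 0.19 relative to it. Before that subtraction the class median was 0.01, so the H2A models as deposited stayed near their GDH64 level while the table as a whole was lower.

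Among H2A models whose lines did not overlap, Nitab4.5_0006991g0010 was higher, at 14.5, 12.1 and 17.3 FPKM in GDH64 and 20.99, 19.0 and 19.4 FPKM in MuGDH64 (limma adjusted p = 0.070). The other 3 were lower, among them Nitab4.5_0009149g0010 at 149, 141 and 143 against 135, 132 and 113 FPKM (limma adjusted p = 0.20). These 4 models are 14.8% of the class, against 37.5% of all tested models. The median coefficient of variation of H2A models between libraries was 8.34% in GDH64 and 10.7% in MuGDH64, the lowest of the core classes.

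Of 18 H2B models 1 fell (5.56%, against 11.9% of all tested models). After quantile normalization 1 was higher and 1 lower (11.1%, against 9.60%). The higher one was Nitab4.5_0005665g0010, at 7.74, 5.95 and 5.89 FPKM in GDH64 and 10.5, 8.74 and 7.01 FPKM in MuGDH64 (limma adjusted p = 0.0462, against 0.163 as deposited). Nitab4.5_0000255g0060 stood at 138, 129.8 and 131 FPKM in GDH64 and 111, 97.9 and 80.2 FPKM in MuGDH64, with no overlap. It fell by 0.30 ± 0.121 on the relative log2 scale. Its log2 change before subtraction was -0.47 (limma adjusted p = 0.0379), and it was called in 7 of 15 alternatives (adjusted p from 0.0242 to 0.117). The calls lost included those without any 1 of the GDH64 libraries and without MuGDH64 library 2 or 3, with adjusted p from 0.0674 to 0.112. The most abundant H2B models, Nitab4.5_0000610g0170 and Nitab4.5_0003782g0080, overlapped. The former was at 172, 184 and 147 FPKM in GDH64 and 183, 163 and 143 FPKM in MuGDH64. The latter was at 166, 191 and 160.1 against 168, 162 and 129 FPKM (limma adjusted p = 0.842 and 0.349).

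**Figure D4:**
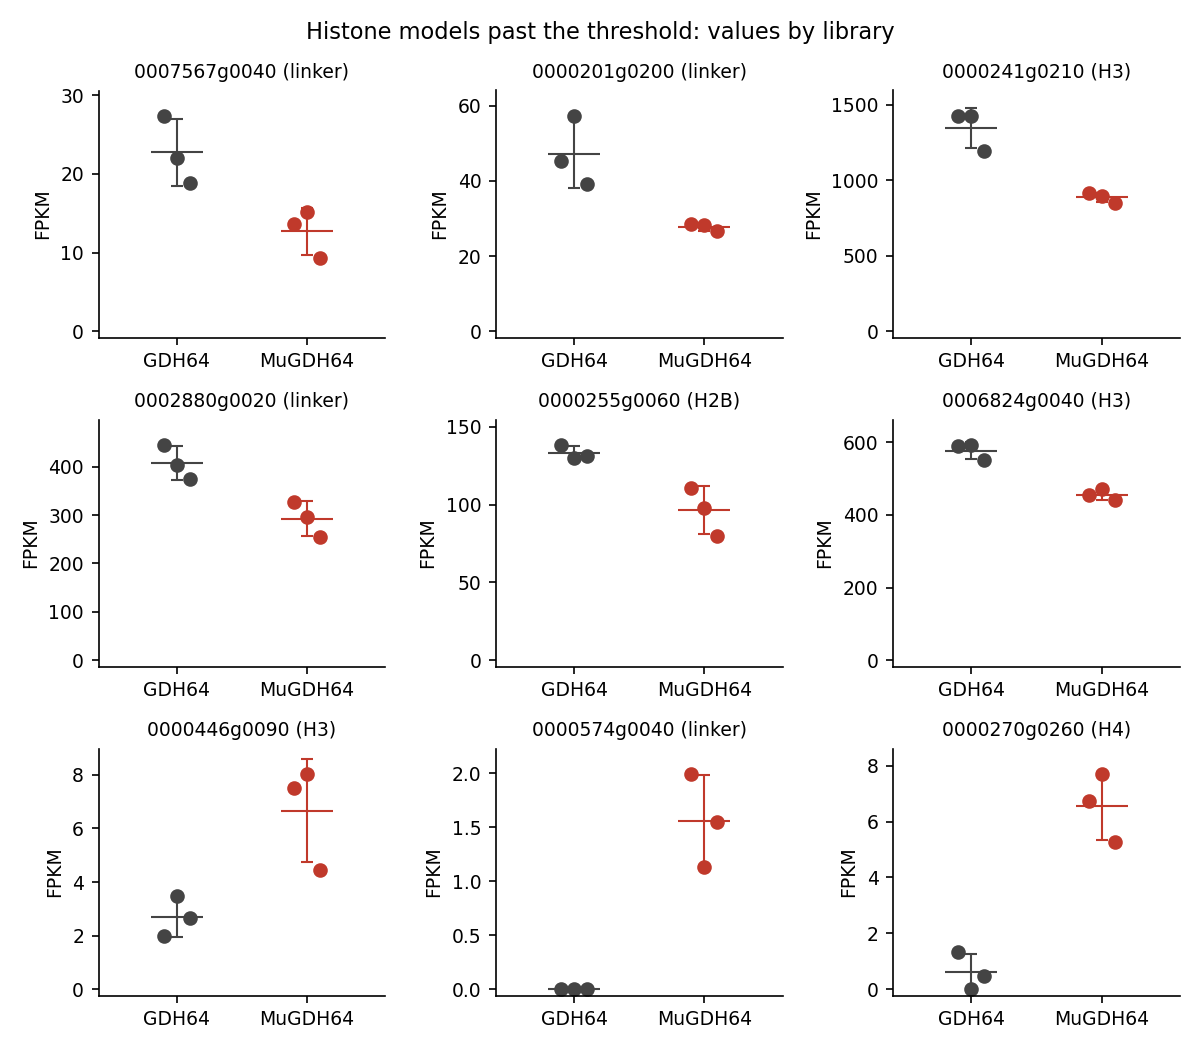
FPKM (vertical axes, each with its own scale) of the 9 models past the limma threshold, with points for libraries, bars for means and whiskers for the SD, ordered from the lowest to the highest log2 change. In all panels the 3 values of one line lie apart from the 3 of the other, and the 3 models that rose stay under 10 FPKM.

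Linker histones fasten the DNA at the edge of the nucleosome and compact the fibre. The 18 kept models with a linker histone domain had 4 calls, 3 lower and 1 higher (22.2%, against 11.9% of all tested models). Their descriptions fall into 9 models with the globular H15 domain and an AT hook, a short motif that binds the minor groove of AT-rich DNA, and 9 without an AT hook. No model with an AT hook carries the histone H5 name that most of the others have, so these may not be linker histones proper. This division was made after the values were seen and was given no test. As deposited 33.3% of the models with an AT hook and 11.1% of those without were called. After quantile normalization 33.3% of each were called, against 9.60% of all tested models.

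Linker models with an AT hook were lower in most cases. Nitab4.5_0000201g0200 stood at 45.2, 57.2 and 39.2 FPKM in GDH64 and 28.5, 28.2 and 26.6 FPKM in MuGDH64, with no overlap. It fell by 0.55 ± 0.136 on the relative log2 scale. Its log2 change before subtraction was -0.73 (limma adjusted p = 0.0127), and the call held in all 15 alternatives (adjusted p from 0.00643 to 0.0452). Nitab4.5_0007567g0040, which also carries an HMG-I/HMG-Y name, that of small chromatin proteins with AT hooks, stood at 27.3, 22.0 and 18.8 against 13.7, 15.1 and 9.31 FPKM. It fell by 0.63 ± 0.189 on the relative scale, with a log2 change of -0.80 before subtraction (limma adjusted p = 0.0290). It was called in 10 of 15 alternatives (adjusted p from 0.0153 to 0.0854), not without GDH64 library 1 or 2 (0.0854 and 0.0754) or MuGDH64 library 3 (0.0694).

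Another AT hook model, Nitab4.5_0002364g0060, was lower by a similar size without passing, at 15.8, 10.3 and 12.7 FPKM in GDH64 and 9.96, 5.75 and 4.4 FPKM in MuGDH64 (limma adjusted p = 0.051). As deposited, in 6 of the 9 AT hook models every MuGDH64 library lay below every GDH64 library, and in 1 every MuGDH64 library lay above. Among all tested models 31.8% lay below and 5.68% above. After quantile normalization the lines overlapped in Nitab4.5_0004028g0030, Nitab4.5_0001986g0050, Nitab4.5_0004679g0060 and Nitab4.5_0002364g0060 of these 6. Nitab4.5_0000201g0200 and Nitab4.5_0007567g0040 stayed below, and Nitab4.5_0000574g0040 stayed above. Summed over the 9 AT hook models the level was 179, 182 and 148 FPKM in GDH64 and 119.6, 126 and 111 FPKM in MuGDH64, a ratio of 0.699. As a share of the library's summed FPKM the ratio was 0.761, again without overlap (203 to 241 against 166 to 179 parts per 1000000).

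The AT hook model that went against the others was Nitab4.5_0000574g0040. It reached 1.99, 1.13 and 1.55 FPKM in MuGDH64 and was listed at 0 in all GDH64 libraries (limma adjusted p = 0.00357). Because it was kept only through MuGDH64, a difference was built into its selection, and its p is given as a description. It could not be tested once a MuGDH64 library was left out. No fold is given against a line listed at 0.

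Of the 4 most abundant linker models, all without an AT hook, 1 fell and the other 3 did not pass. Nitab4.5_0002880g0020 stood at 444, 403 and 374 FPKM in GDH64 and 327, 296 and 254 FPKM in MuGDH64, with no overlap. It fell by 0.30 ± 0.114 on the relative log2 scale. Its log2 change before subtraction was -0.48 (limma adjusted p = 0.0297), and it was called in 8 of 15 alternatives (adjusted p from 0.0164 to 0.104). It was not called without GDH64 library 1 or 2 (0.104 and 0.0762) or MuGDH64 library 2 or 3 (0.0727 and 0.0683). The most abundant linker model, Nitab4.5_0005721g0020, was at 589, 523 and 496 against 475, 449 and 385 FPKM, apart without passing (limma adjusted p = 0.102).

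The linker model Nitab4.5_0006433g0010 was at 336, 321 and 307 FPKM in GDH64 and 368, 358 and 309.8 FPKM in MuGDH64. Nitab4.5_0001044g0080 was at 295, 275 and 268 against 341, 318 and 275 FPKM. Both overlapped and did not pass as deposited (limma adjusted p = 0.485 and 0.327). After quantile normalization both were called higher (limma adjusted p = 0.0376 and 0.0340). Nitab4.5_0000187g0330, at 70.6, 71.1 and 64.1 against 74.6, 70.9 and 59.9 FPKM, overlapped fully. Across the 9 linker models without an AT hook the median relative log2 change was 0.14, and across the 9 with one it was -0.17.

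Several histone models lie near each other in the genome, judged by the scaffold number in their identifiers. On 10 scaffolds there was more than 1 kept member, 23 members in all, and 6 of these scaffolds held members of different classes. Scaffold 0000610 held the H2B models Nitab4.5_0000610g0060 and Nitab4.5_0000610g0170, the H2A model Nitab4.5_0000610g0110 and the H4 model Nitab4.5_0000610g0120, the latter pair with consecutive numbers. Their means over the 3 GDH64 libraries lay between 69.5 and 204 FPKM, and none of the 4 passed. Scaffold 0003782 held an H4, an H2A and an H2B model, each the first or second of its class in level, and none of them passed either.

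Neighbours on some scaffolds differed in level. On scaffold 0000255 the H2B model Nitab4.5_0000255g0060, the 1 of 23 that was called, stood beside the H2B model Nitab4.5_0000255g0070 at 4.69, 11.8 and 11.8 FPKM in GDH64 and 8.64, 7.1 and 6.63 FPKM in MuGDH64. On scaffold 0001044 the linker model Nitab4.5_0001044g0080, at 279 ± 13.8 FPKM in GDH64, followed the H2A model Nitab4.5_0001044g0070 that barely met the minimum.

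**Figure D5:**
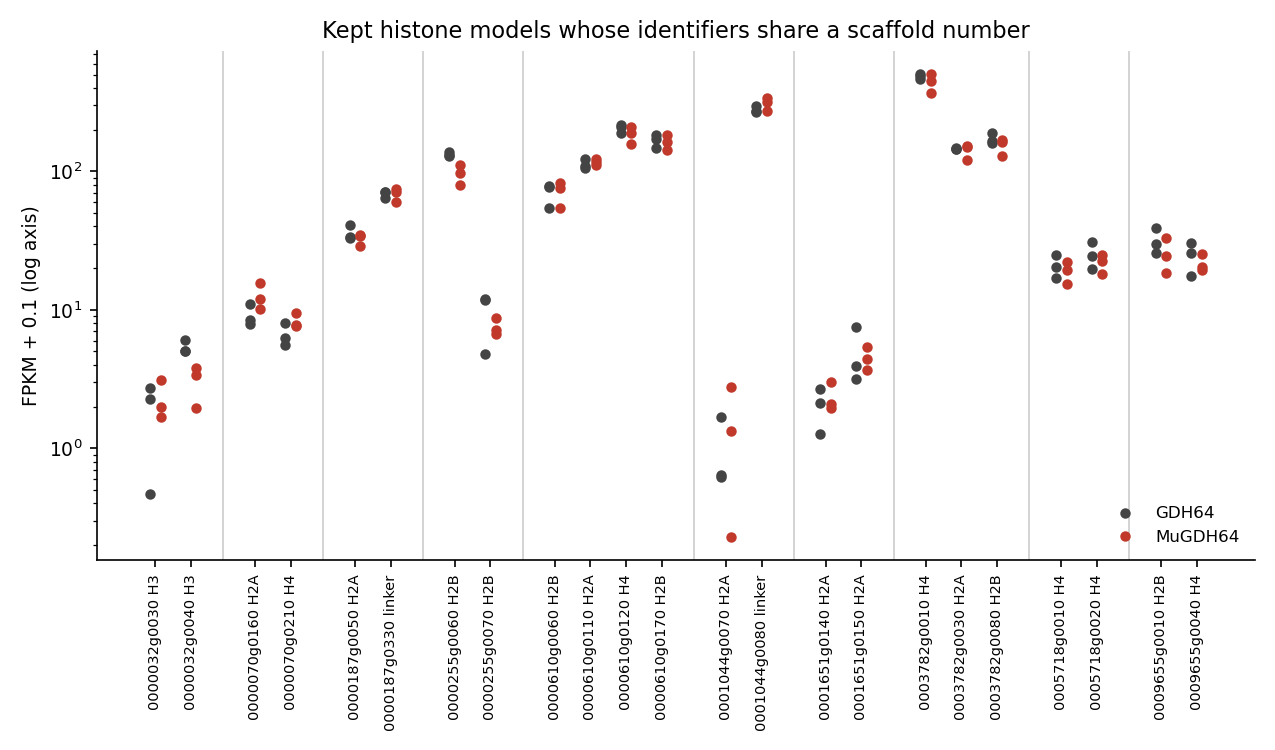
FPKM + 0.1 (log axis) of the 23 kept histone models whose identifiers share a scaffold number, with grey lines between scaffolds and points for the libraries of each line. Models of scaffolds 0000610 and 0003782 are all abundant and overlap between the lines, while the neighbours on scaffolds 0000255 and 0001044 differ widely in level.

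The acetyltransferases matched by the rule were no histones and none of 8 was called (2 had an unadjusted limma p under 0.05). They comprise 4 models of Eaf6, a subunit of the NuA4 complex, and 4 models with an RTT109-type domain beside TAZ and ZZ zinc fingers, as in plant CBP-like proteins. The 2 highest were Eaf6 models: Nitab4.5_0000044g0340 at 12.3, 14.2 and 11.7 FPKM in GDH64 and 8.5, 8.84 and 10.8 FPKM in MuGDH64 (limma adjusted p = 0.070), and Nitab4.5_0001005g0090 at 14.3, 9.68 and 6.29 against 7.31, 6.28 and 7.92 FPKM. In the latter the lines overlapped.

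Genes that act with histones were counted from lists of description terms. Among 31 histone chaperones, which escort histones to and from DNA, 2 rose and 1 fell. The member with the smallest adjusted p, Nitab4.5_0000072g0450, an FKBP-type prolyl isomerase with a nucleoplasmin core domain, stood at 3.07, 3.34 and 2.97 FPKM in GDH64 and 11.6, 11.0 and 10.4 FPKM in MuGDH64 (limma adjusted p = 0.000161). Among 41 histone deacetylase and acetyltransferase models outside the members 1 rose and 4 fell, with a SAP30 subunit of a deacetylase complex, Nitab4.5_0001522g0050, lower at 12.6 against 23.3 FPKM (limma adjusted p = 0.00425). Of 99 SET and JmjC domain models, which add or remove histone methyl groups, none rose and 3 fell, led by the JmjC model Nitab4.5_0003250g0020 (limma adjusted p = 0.0228). Of 29 HMG box models none rose and 8 fell, 4 after quantile normalization, and Nitab4.5_0000673g0160 had the smallest adjusted p (limma adjusted p = 0.00941). Of 54 NF-Y and other histone-fold factors none rose and 3 fell, led by the TFIID subunit Nitab4.5_0009182g0030 (limma adjusted p = 0.0164). These counts stand against 2.20% higher and 9.74% lower among all tested models.

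Markers of dividing cells and of other leaf tissues were set beside the histones. Their counts stand against 2.20% higher and 9.74% lower among all tested models, and 4.43% and 5.17% after quantile normalization. Of 65 DNA replication models 1 rose and 1 fell, with a median relative log2 change of 0.02. The one that rose was a replication factor A model, Nitab4.5_0012917g0020, at 9.98, 12.6 and 11.9 against 19.1, 17.2 and 19.1 FPKM (limma adjusted p = 0.0115). Cyclins and kinesins had 14 of 111 models lower and none higher (12.6%), 8 and 0 after quantile normalization (7.21%), with a median of -0.14. Nitab4.5_0001026g0010, described as cyclin P/U and PHO80-like, had the smallest adjusted p (limma adjusted p = 0.00442). The cyclin and kinesin models summed to 641 to 744 FPKM in GDH64 and 513 to 578 FPKM in MuGDH64, without overlap. The sums of the replication models overlapped, at 412 to 460 against 357 to 421 FPKM. The sums of the HMG box, NF-Y, SET and JmjC, deacetylase and E2F lists also lay apart, and so did the library totals, each lower in MuGDH64. Of 12 E2F and retinoblastoma-related models 2 fell, led by an E2F-associated phosphoprotein, Nitab4.5_0000069g0170 (limma adjusted p = 0.00781).

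Epidermal homeobox START models had 1 of 21 higher and 7 lower, with Nitab4.5_0002347g0050 first (limma adjusted p = 0.00336), against 1 and 6 after quantile normalization, and summed to 91.5 to 106 FPKM in GDH64 and 61.8 to 73.4 FPKM in MuGDH64. Among all tested models 2.20% were higher and 9.74% lower as deposited, and 4.43% and 5.17% after quantile normalization. Phloem models had none of 38 higher and 3 lower, with Nitab4.5_0000140g0190 first (limma adjusted p = 0.00625), against 3 higher and 2 lower after quantile normalization, and their sums overlapped. Of the 71 photosynthetic models 2 rose and 14 fell, against 5 higher and 7 lower after quantile normalization, with Nitab4.5_0002814g0030 first (limma adjusted p = 0.00313). The part that cyclin, epidermal or HMG box transcripts, or the lower total of MuGDH64 library 3, had in the histone values was not tested.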

How the data were processed

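RNA sequencing was done on leaf of 2 tobacco lines with 3 libraries each. TRIzol extraction, DNase I treatment and paired-end sequencing of TruSeq libraries are stated per the labels' protocols. Per the submitters' processing notes, TopHat2 and Cufflinks were used. Tool versions, genome build and annotation were not given in the sources used here. In the deposited table no unit is named. Its values were taken as FPKM made by the authors, inferred from the decimals, unequal library sums and Cufflinks. Low values showed no steps of whole reads, so depth is unknown. The authors' mean columns were not used.

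Log2(FPKM + 1) was tested with limma (version 3.58.1, R 4.3.3; eBayes with trend) over the 32340 models that reached 1 FPKM in 3 or more libraries. Line was the single term, with two-sided tests and Benjamini-Hochberg adjustment of p values over all tested models, with a threshold of 0.05. The scale understates changes of low models. P values rest on the spread between these libraries, which may be technical. The procedure was tested on simulated data. Figures were drawn with Python 3.11.15, pandas 2.3.3 and matplotlib 3.10.9.

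Named members are the 2 most abundant of each class, up to 3 called members of each class with the largest change, called members against the majority of their class and members listed at 0 in 1 line only, plus the called member with the smallest adjusted p of each other list. Members and lists were chosen with earlier results of these data known. Acetyltransferases were set apart, as a class of their own, after the descriptions were read. Lists rest on description terms: the cyclin list includes other cyclin-like folds such as TFIIB. Gene models could not be linked to gene names. Alternatives were other scalings, filters, a pseudocount of 0.1, no trend, a block for library number, and fits without each library in turn.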

Additional observations from a re-analysis of the deposited data

How the results depend on the processing

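The number of all gene models called, 3863, was 2280 without the filter on low values and within 1.5 times in the other scalings, filters and models. The number of members called higher, 3, was 8 after quantile normalization, 7 after rescaling to a sum of 1000000 and 9 after median-centring. Higher calls over all models went from 712 to 1433, 1285 and 1940 in the same order. The number called lower, 6, was 2 after median-centring, 3 without the trend and 2 without the filter. Lower calls over all models went from 3151 to 1384, 2892 and 1784 in the same order, the last over 46292 models. The members' median log2 change, -0.11 before subtraction, was 0.030 after quantile normalization, -0.0014 after rescaling and 0.090 after median-centring, so its sign depended on the scaling, as that of all models did. With each library left out in turn, calls over all models ran from 1794 to 3141, members higher from 1 to 4, members lower from 2 to 6 and the median from -0.18 to -0.04. In the same fits higher calls over all models ran from 348 to 650 and lower calls from 1345 to 2491. The cause was not tested.

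With the library number as a block, 10 members were lower in place of 6 and 4 higher. Over all models 3279 were lower in place of 3151, and 712 were higher as before. Deviations of same-numbered libraries correlated at 0.015, 0.013 and 0.051, and those of different numbers at -0.046 to 0.028. GDH64 library 2 correlated best with MuGDH64 library 1. No label says what a shared number stands for, so whether same-numbered libraries are paired is unknown. No named member changed sign past the threshold in any of these alternatives. Depth is unknown, and the 39 members under 10 FPKM are the least certain.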
